A study of Mus musculus with 2 samples.

Results

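The genes described here are 10 dorsoventral patterning genes of the retina, taken by symbol from the 28692 genes of a pair of single-cell count matrices. General knowledge of the embryonic eye places 6 of them on the dorsal side, *Aldh1a1*, *Tbx2*, *Tbx3*, *Tbx5*, *Efnb1* and *Efnb2*, and 4 on the ventral side, *Aldh1a3*, *Vax2*, *Ephb2* and *Ephb3*. The cells came from *LHX4::GFP* mice at E14.5 (strain Tg(Lhx4::EGFP)KN199Gsat/Mmucd), in which an inserted bacterial artificial chromosome makes EGFP under the control of *Lhx4* sequence and so traces early cone photoreceptors. GFP-positive retinas from 2 litters were pooled in a single suspension and sorted, and the GFP+ and GFP- cells were each made into 1 droplet library, so the gates share age, strain and embryos. Dorsal and ventral retina were not dissected apart, and the position of a cell is known here only through its transcripts.

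The eye cup is patterned by signals from its edges, with bone morphogenetic proteins acting dorsally and hedgehog proteins ventrally. They set up opposing domains of transcription factors, the T-box factors *Tbx2*, *Tbx3* and *Tbx5* dorsally and the homeobox factor *Vax2* ventrally. Downstream of these, retinoic acid is made by *Aldh1a1* on the dorsal and by *Aldh1a3* on the ventral side, and a gradient of B-type ephrins against one of EphB receptors guides the axons of ganglion cells to their targets.

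Transcripts were counted by unique molecular identifiers (UMIs), gene by gene in every cell. Depth differed between the gates, with 16010591 UMIs from 3728 cells for GFP+ and 46778924 UMIs from 4445 cells for GFP-. Between 250 and 3500 detected genes and less than 0.25 of UMIs from mitochondrial genes were required, which retained 3689 GFP+ cells (median 3894 UMIs) and 3391 GFP- cells (median 8853 UMIs). The upper limit removed 23.7% of cells from the GFP- gate but 1.05% from the GFP+ gate, and 20 barcodes occurred in both libraries. A level is the sum of a gene's UMIs over a group, scaled to 1000000 UMIs of that group (counts per 1000000, CPM), and its 95% interval is an exact Poisson one. Percentages of cells carry a 95% exact Clopper-Pearson interval. With 1 library per gate there are no replicates, no difference between gates or groups could be tested, and the intervals cover counting error only.

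Cells were grouped by UMIs of at least 2 listed marker genes. In the GFP+ gate 3557 of the kept cells were cones (96.4%, 95.8 to 97.0%), with a median of 3884 UMIs, the cell type that the reporter traces. The GFP- gate held 1928 multipotent progenitors (56.9%, median 9204 UMIs), 465 ganglion cells, 413 neurogenic cells, 242 amacrine or horizontal cells and 68 cones. A further 594 ganglion cells lay over the upper limit on genes. Cells that met the rule for more than 1 type numbered 11 in the GFP+ and 56 in the GFP- gate and are in none of these groups. The amacrine and horizontal group carried the 4 listed endothelial markers at 352 CPM, against 56.6 in progenitors, with 1 of the 4 at 0 in both. No retinal group is known to lack the dorsoventral genes. *Gngt2*, a cone gene found in 97.6% of GFP+ cones, had a UMI in 0.363% of progenitors. *Hes1* and *Nr2e1*, progenitor genes found in 87.8% and 55.6% of progenitors, had one in 0.562% and 0.759% of GFP+ cones. Free RNA comes from cells of the same library, and the GFP- gate held 68 cones and the GFP+ gate 22 progenitors. These shares thus gauge free RNA only from cell types scarce in a library, not from its common ones. *Gngt2* is also a marker of the cone group, so the grouping itself limits its share in progenitors.

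The genes lie on 9 chromosomes of the GRCm38 build, and *Tbx3* and *Tbx5* are neighbours on chromosome 5. The retinaldehyde dehydrogenase genes are *Aldh1a1* (ENSMUSG00000053279, chr19:20492715-20643465, + strand) and *Aldh1a3* (ENSMUSG00000015134, chr7:66390890-66427517, - strand). The T-box genes are *Tbx2* (ENSMUSG00000000093, chr11:85832551-85841948, +), *Tbx3* (ENSMUSG00000018604, chr5:119670669-119684724, +) and *Tbx5* (ENSMUSG00000018263, chr5:119832668-119885219, +), and the homeobox gene is *Vax2* (ENSMUSG00000034777, chr6:83711264-83738313, +). The ephrin genes are *Efnb1* (ENSMUSG00000031217, chrX:99136130-99148991, +) and *Efnb2* (ENSMUSG00000001300, chr8:8617434-8661242, -), and their receptors *Ephb2* (ENSMUSG00000028664, chr4:136647539-136835988, -) and *Ephb3* (ENSMUSG00000005958, chr16:21204755-21223305, +). *Vax2* overlaps its antisense gene *Vax2os* by 938 bases and *Tbx3* overlaps *Tbx3os1* by 697 bases. The sources used here do not say whether counting used the strand, so reads in these overlaps cannot be assigned with certainty.

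The dorsal genes include T-box factors, so the promoters of the members were read for their core binding letters. RefSeq windows of the GRCm38 build, from 250 bases before to 50 bases after a transcript start, were held for 5 of the 10 members. The T-box letters TCACACC, on either strand, were in 3.98% of all 32851 windows, and among the 6 windows of these members only in the upstream one of *Aldh1a1*, 192 bases before the start. Neither the homeobox letters TAATTA (5.29% of all windows) nor the retinoid half-site AGGTCA (16.3%) were in any of the 6, which says only that these letters are not there. Both *Aldh1a1* windows, on the + strand with the T-box letters in capitals, are shown because *Aldh1a1* was the most unevenly spread member.
*Aldh1a1* chr19:20492333-20492632: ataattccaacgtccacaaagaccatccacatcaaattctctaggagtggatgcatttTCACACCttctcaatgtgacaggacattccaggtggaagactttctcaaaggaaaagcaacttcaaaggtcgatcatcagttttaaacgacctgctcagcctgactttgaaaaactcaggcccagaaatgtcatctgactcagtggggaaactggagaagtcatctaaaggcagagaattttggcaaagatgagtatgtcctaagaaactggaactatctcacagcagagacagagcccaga
*Aldh1a1* chr19:20601718-20602017: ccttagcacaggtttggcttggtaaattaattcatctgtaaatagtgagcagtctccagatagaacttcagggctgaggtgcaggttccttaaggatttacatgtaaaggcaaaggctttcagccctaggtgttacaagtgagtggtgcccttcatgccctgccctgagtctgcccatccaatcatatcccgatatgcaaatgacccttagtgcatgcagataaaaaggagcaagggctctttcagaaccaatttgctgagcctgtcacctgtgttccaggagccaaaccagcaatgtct

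The first comparison asked how the sorted cone gate differs from the rest of the retina. Of the 10 genes, 1 was at least 2-fold higher and 6 were at least 2-fold lower in the GFP+ than in the GFP- library, against a background of 23% higher and 16.5% lower over the 15237 genes with at least 10 UMIs. The median GFP+ over GFP- ratio was 0.375 for the members and 1.23 for all genes. With TMM factors the median of all genes moved to 0.977, and the split changed from 3506 genes higher and 2519 lower to 2425 higher and 3225 lower, while the members stood at 1 higher and 7 lower.

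Both enzymes of retinoic acid synthesis were low in the cone gate. *Aldh1a1* stood at 3.68 CPM in the GFP+ and 42.8 in the GFP- library, a ratio of 0.086 (0.0648 to 0.112). *Aldh1a3* stood at 2.00 and 43.1, a ratio of 0.0464 (0.0314 to 0.0661). These were the lowest ratios among the members. The share of GFP+ cones with an *Aldh1a3* UMI, 0.590% (0.366 to 0.901%), was near the shares with *Hes1* and *Nr2e1* given above, although those genes are found in more progenitors. *Cyp26a1*, found in 25.3% of progenitors where *Aldh1a3* was found in 28.0%, had a UMI in 0.0562% of GFP+ cones. Whether the few *Aldh1a3* UMIs of cones are expression or free RNA was not tested, and the cone results that use them carry this limit.

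The transcription factors did not move together. *Tbx3* stood at 9.74 and 31.0 CPM, a ratio of 0.314 (0.263 to 0.374), and *Vax2* at 34.4 and 94.0, a ratio of 0.366 (0.333 to 0.401). *Tbx2* was higher in the GFP+ library, at 45.3 against 26.6, a ratio of 1.70 (1.54 to 1.89), and the interval of *Tbx5* spanned equality, at 4.71 against 5.34 with a ratio of 0.881 (0.659 to 1.17). A dorsal factor was thus the only factor with an interval above 1. On shares of cells thinned to 3200 UMIs, *Tbx2* was found in 12.1% of GFP+ and 7.46% of GFP- cells, while without thinning the deeper GFP- cells showed it in 18.0% against 15.0%.

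The ligands and receptors of axon guidance split as well. *Efnb1* was the member at least 2-fold higher in the cone gate, at 46.8 CPM against 13.5, a ratio of 3.47 (3.07 to 3.92). *Efnb2*, its close relative, went the other way, at 9.55 against 31.3, a ratio of 0.305 (0.255 to 0.363). The receptors were lower, *Ephb2* at 24.1 against 62.7 (ratio 0.384, 0.343 to 0.429) and *Ephb3* at 2.32 against 4.42 (ratio 0.526, 0.353 to 0.765). The dorsal ligands thus went opposite ways between the gates, with *Efnb1* high and *Efnb2* low in the cone gate.

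**Figure D1:**
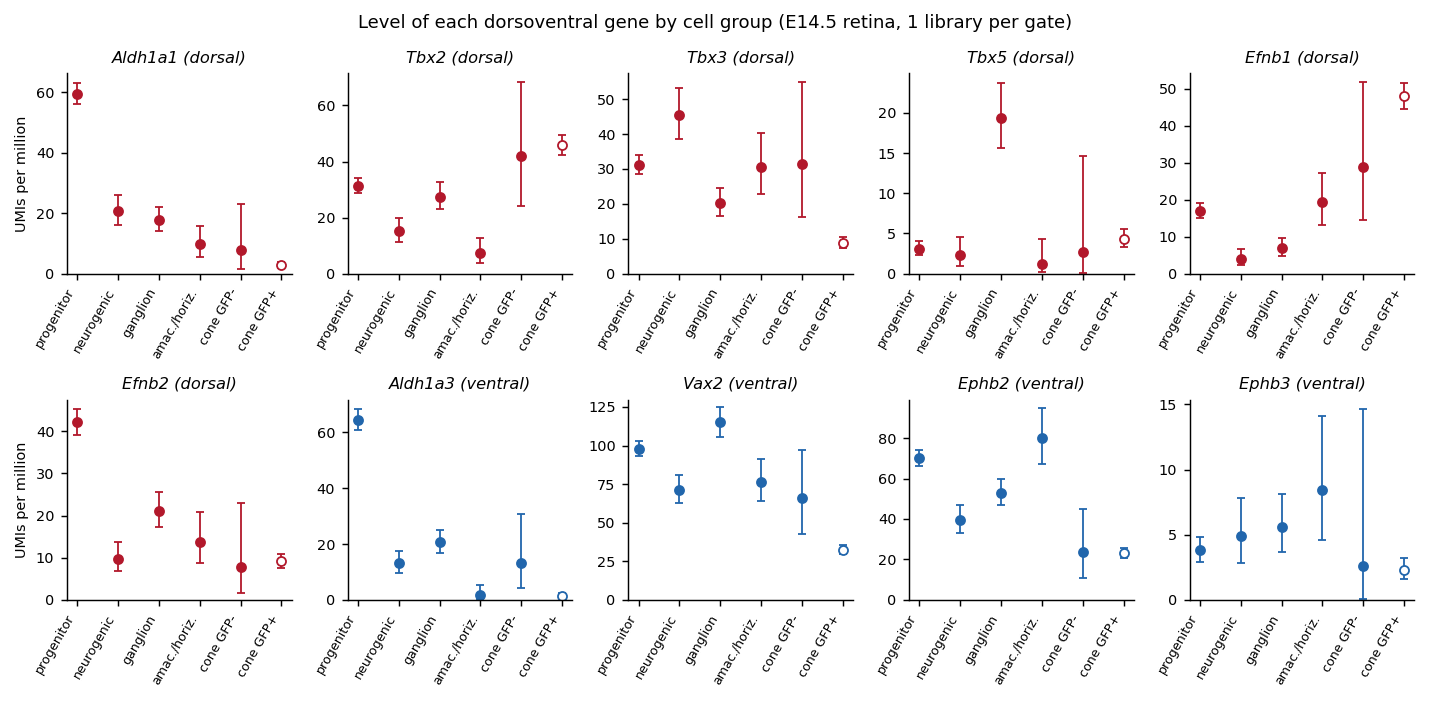
Level of each gene in CPM (y axis, UMIs scaled to 1000000) in the cell groups (x axis), red for dorsal and blue for ventral genes, filled points for GFP- and open points for GFP+ cells, with 95% exact Poisson intervals. *Aldh1a1*, *Aldh1a3* and *Efnb2* were highest in progenitors, *Tbx5* in ganglion cells at 19.4, and *Efnb1* in GFP+ cones at 47.9.

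Progenitors divide and give rise to the other groups, so the members were next set against their level in progenitors. In GFP+ cones 1 member was at least 2-fold higher and 6 were lower, against backgrounds of 28.7% and 15.9%. *Efnb1* rose from 16.9 CPM in progenitors to 47.9 in GFP+ cones, a ratio of 2.83 (2.47 to 3.25), and *Tbx2* stood at 31.3 and 45.8, a ratio of 1.46 (1.31 to 1.64). The median of this ratio over all genes was 1.31, so that of *Tbx2* lay near the general shift. *Aldh1a3* stood at 64.5 in progenitors and 1.56 in GFP+ cones, a ratio of 0.0241 (0.0152 to 0.0363). The 68 cones of the GFP- gate carried *Efnb1* at 28.9 (14.4 to 51.7) and *Tbx3* at 31.5 (16.3 to 55.1), the latter above the 8.86 (7.41 to 10.5) of GFP+ cones. Those 68 cells also carried the 5 progenitor markers at 531 CPM, against 38.3 in GFP+ cones, and the part of this in their levels was not tested.

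Neurogenic cells had 0 members higher and 5 lower, against 6.61% and 11.6% of all genes. *Tbx3* was the exception among the dorsal genes, at 45.5 CPM against 31.2 in progenitors, a ratio of 1.46 (1.22 to 1.74). The ephrin genes were lower, *Efnb1* at 4.01 against 16.9 (ratio 0.237, 0.128 to 0.404) and *Efnb2* at 9.74 against 42.2 (ratio 0.231, 0.159 to 0.325). *Efnb1* was therefore low in neurogenic cells and high in GFP+ cones, with progenitors between them and no interval shared.

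Ganglion cells send the axons that the ephrins guide, and there 1 member was higher and 4 were lower, against 13.7% and 14.1% of all genes. *Tbx5* was the higher member, at 19.4 CPM (15.7 to 23.8) against 3.06 (2.30 to 3.99), a ratio of 6.35 (4.49 to 9.04). *Vax2* stood at 115 against 98.0, a ratio of 1.17 (1.07 to 1.29), and so was the only ventral member whose interval lay above progenitors. The receptor *Ephb2* stood at 53.1 against 70.3, a ratio of 0.755 (0.658 to 0.864). The ganglion cell group also carried the 5 progenitor markers at 1146 CPM, against 4275 in progenitors and 182 in amacrine and horizontal cells. The part of this in the ganglion cell results, here and below, was not tested. In amacrine and horizontal cells 1 member was higher and 5 were lower, against 17.7% and 16.7% of all genes. The higher one was *Ephb3*, at 8.43 against 3.80 CPM on 14 and 67 UMIs, a ratio of 2.22 (1.15 to 3.99). *Ephb2* there (80.1, 67.0 to 94.9) was not distinguishable from progenitors, while *Aldh1a3* was nearly absent at 3 UMIs in 242 cells.

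A gene that is on in part of the retina is found in fewer cells than its total would give if every cell drew from the same level. In progenitors *Aldh1a1* was the extreme case among the members, with 1049 UMIs in 356 of 1928 cells (18.5%, 16.8 to 20.3%), 0.445 of the share for an even spread, and with up to 31 UMIs in a cell. *Aldh1a3* was found in 28.0% of progenitors (0.635 of the even share, up to 11 UMIs) and *Vax2* in 38.1% (0.653, up to 13 UMIs). These 3 of the 10 members were at or under 0.8 of the even share, as were 1.85% of the 9153 genes within the range of level of the members, whose median was 0.987. That range ran from 3.06 to 98.0 CPM, and a gene of low level lies nearer 1 for a like spread. The 1.85% is thus not matched to the level of these 3 members. The other members were closer to even, from 0.882 for *Efnb2* and 0.885 for *Tbx3* to 0.973 for *Ephb2* and 0.988 for *Ephb3*. *Efnb2* and *Tbx3* still lay below the range that held most of the 9153 genes, 0.904 to 1.02. The enzymes and *Vax2* were thus concentrated in some cells. For genes with few UMIs, such as *Ephb3* with 67 UMIs in 65 cells and *Tbx5* with 54 in 51, the measure lies near 1 however the transcripts are spread and shows nothing.

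**Figure D2:**
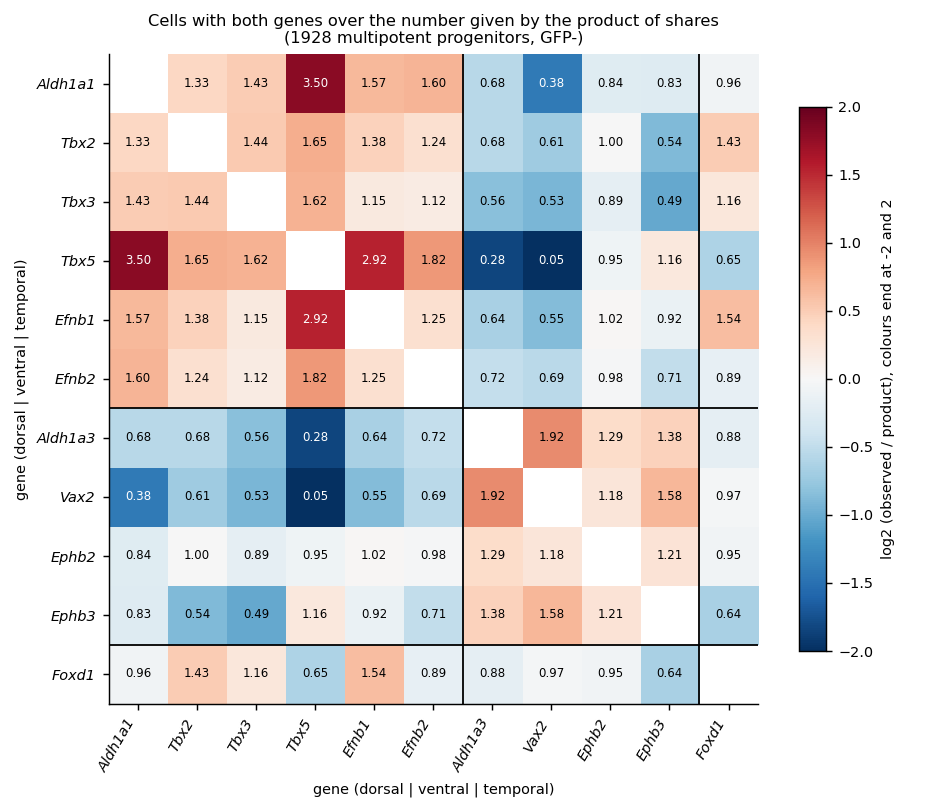
Number of progenitors with a UMI of both genes over the number given by the product of their shares, for pairs among the 10 members and of each with *Foxd1*, which marks the temporal side, with colour on a log2 scale that ends at -2 and 2. The dorsal-ventral block is mostly blue, with 22 of its 24 pairs below the product, and the blocks within a side are red.

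Whether dorsal and ventral genes exclude each other was read from the 1928 progenitors. Of the 24 dorsal-ventral pairs, 22 were found together in fewer cells than the product of their shares, 13 had a share in cells with and without the partner whose intervals did not meet, and 0 pairs were higher in this way. Of the 15 dorsal-dorsal pairs 11 were higher, as were 4 of the 6 ventral-ventral pairs. With every cell thinned to 5000 UMIs the counts were 9 of 24 lower, 6 of 15 higher and 4 of 6 higher. Pairs over all genes of like level were not counted, here or in the other groups, so how many of those would pass is not known. Pairs of a member with *Foxd1*, a forkhead factor of the temporal side, served as the only comparison, from the other axis. Of these 10 pairs 7 were below the product, with a median ratio of 0.956 against 0.687 for the dorsal-ventral pairs, and by intervals 0 were lower and 2 were higher, *Foxd1* with *Tbx2* (32.3% against 21.3%) and with *Efnb1* (20.7% against 12.4%), and after the same thinning 0 were lower and 0 higher.

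Each of the 6 dorsal genes was further below the product with *Vax2* than with *Aldh1a3*. A *Vax2* UMI was found in 14.3% (10.9 to 18.4%) of the progenitors with *Aldh1a1* and in 43.4% (41.0 to 45.9%) of those without, and 51 cells held both where the product gave 136. With *Tbx3* the share was 20.2% against 43.1% and with *Tbx2* 23.2% against 42.4%, and of the 51 *Tbx5* cells only 1 (1.96%) had *Vax2*, against 39.1% of the rest. The ephrins showed the same direction, at 20.8% against 40.7% for *Efnb1* and 26.3% against 42.7% for *Efnb2*. Read from the side of *Vax2*, 5 of the 9 other members were found in a share of cells at least 2-fold smaller with *Vax2* than without (*Aldh1a1*, *Tbx2*, *Tbx3*, *Tbx5* and *Efnb1*), as were 0.292% of the 10622 genes found in at least 50 progenitors. In the other direction, *Aldh1a3* (53.8% against 12.1%) and *Ephb3* (5.31% against 2.18%) were at least 2-fold more frequent with *Vax2*, as were 0.273% of genes. So 7 of 9 members passed this limit with *Vax2*, all on the side that general knowledge gives them.

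With *Aldh1a1* as the partner fewer members moved as far. *Vax2* was the 1 member at least 2-fold less frequent, against 0.48% of genes, and *Tbx5* the 1 member at least 2-fold more frequent, in 9.27% of *Aldh1a1* cells (33 of 356) against 1.15%, beside 0.358% of genes. *Efnb2* was found in 44.9% (39.7 to 50.3%) of *Aldh1a1* cells and in 24.2% (22.1 to 26.4%) of the others. The enzymes met more often than the enzyme and the factor did, with *Aldh1a3* in 19.1% (15.1 to 23.6%) of *Aldh1a1* cells against 30.0% (27.7 to 32.3%). The receptor *Ephb2* was less frequent with *Aldh1a1*, at 38.5% (33.4 to 43.8%) against 47.2% (44.7 to 49.7%), while its intervals met for the other dorsal genes, as at 45.4% against 45.6% with *Tbx2*. With the ventral genes it was more frequent, at 58.8% against 40.5% with *Aldh1a3* and 53.7% against 40.6% with *Vax2*.

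**Figure D3:**
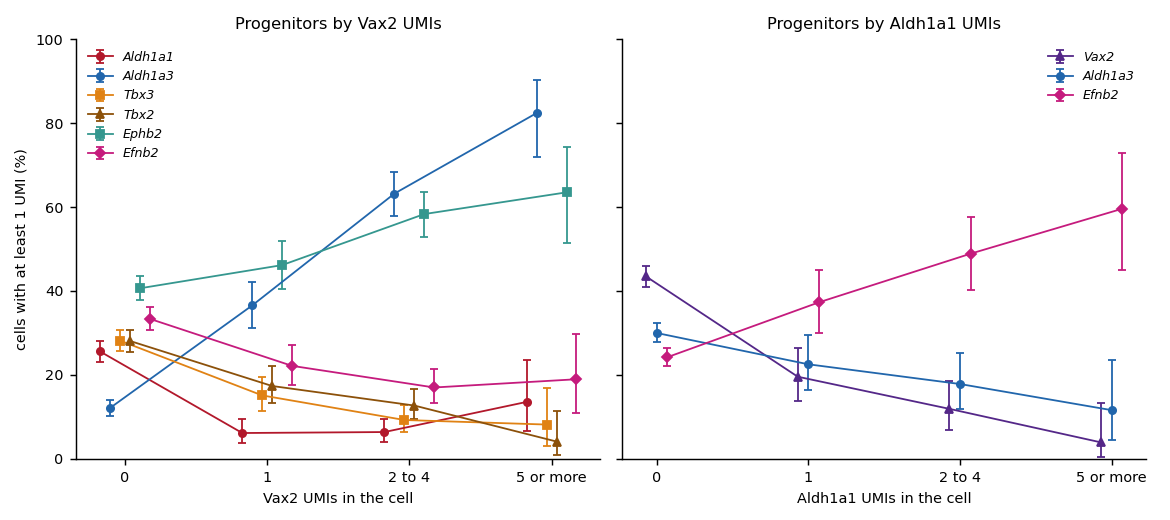
Share of progenitors with at least 1 UMI of each gene (y axis, percent) by the number of *Vax2* UMIs (left) or *Aldh1a1* UMIs (right) in the cell, with 95% exact Clopper-Pearson intervals and points set slightly apart. *Aldh1a3* climbs with *Vax2* from 12.1% to 82.4%, and *Vax2* falls with *Aldh1a1* from 43.4% to 3.85%.

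The shares were graded with the level of the partner. *Vax2* was found in 43.4%, 19.5%, 11.9% and 3.85% of progenitors with 0, 1, 2 to 4 and at least 5 *Aldh1a1* UMIs, and *Efnb2* in 24.2%, 37.3%, 48.9% and 59.6% of the same cells. *Aldh1a3* was found in 12.1%, 36.5%, 63.2% and 82.4% of progenitors with 0, 1, 2 to 4 and at least 5 *Vax2* UMIs, and *Tbx2* in 28.1%, 17.3%, 12.6% and 4.05%. *Aldh1a1* departed from this pattern, since its share stood at 25.5%, 6.09%, 6.32% and 13.5%, with no further drop in the 74 cells of the highest *Vax2* class, where the interval is wide.

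The other groups held fewer such pairs. Among the 24 dorsal-ventral pairs, 5 were lower with intervals apart in ganglion cells, 2 in GFP+ cones, 1 in neurogenic cells and 0 in amacrine and horizontal cells, whose number of cells and of UMIs per cell differ. Below the product were 16 in ganglion cells, 12 in GFP+ cones, 18 in neurogenic cells and 19 in amacrine and horizontal cells. In amacrine and horizontal cells 1 dorsal-ventral pair was higher with intervals apart. There 9 of 15 dorsal-dorsal and 4 of 6 ventral-ventral pairs also lay below the product. GFP+ cones and this group thus showed no general lean of the dorsal-ventral pairs alone. *Aldh1a1* with *Vax2* was lower in ganglion cells (20.9% against 53.3%), neurogenic cells (6.25% against 36.2%) and GFP+ cones, where 0 of 38 *Aldh1a1* cells had *Vax2* (up to 9.25%) against 11.4% of the rest. In the 465 ganglion cells all 5 lower pairs were with *Vax2*, and *Efnb2* cells had it in 22.5% (13.9 to 33.2%) against 56.1%.

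Cells were then called by position from anchors on either side. A dorsal-called cell had a UMI of *Aldh1a1*, *Tbx3* or *Tbx5* and none of *Aldh1a3* or *Vax2*, and a ventral-called cell the reverse. Among progenitors 495 were dorsal-called, 697 ventral-called, 181 had both and 555 had neither, with median depths of 8929, 9637, 9841 and 8486 UMIs. Read from calls made without the gene itself, each anchor was on its own side in progenitors. *Aldh1a1* stood at 112 CPM in dorsal-called and 15.0 in ventral-called progenitors (ratio 7.43, 5.97 to 9.31), and *Vax2* at 19.1 and 223 (ratio 0.0855, 0.0686 to 0.106). *Tbx5* had 39 UMIs in 485 dorsal-called and 0 UMIs in 697 ventral-called cells.

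The 5 members that took no part in the calls carried the comparison, and 3 were at least 2-fold higher and 1 at least 2-fold lower in dorsal-called progenitors, against 2.51% and 2.3% of 12472 genes. The dorsal factor *Tbx2* stood at 48.2 CPM in dorsal-called and 16.2 in ventral-called cells, a ratio of 2.98 (2.35 to 3.80). The ligands were higher too, *Efnb1* at 24.7 against 7.25 (ratio 3.42, 2.41 to 4.90) and *Efnb2* at 70.2 against 22.2 (ratio 3.16, 2.59 to 3.88). The receptors were lower, *Ephb2* at 50.6 against 87.0 (ratio 0.582, 0.497 to 0.680) and *Ephb3* at 2.45 against 5.89 on 11 and 39 UMIs (ratio 0.417, 0.192 to 0.829). All 5 were on the side that general knowledge gives, and no interval held equality.

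**Figure D4:**
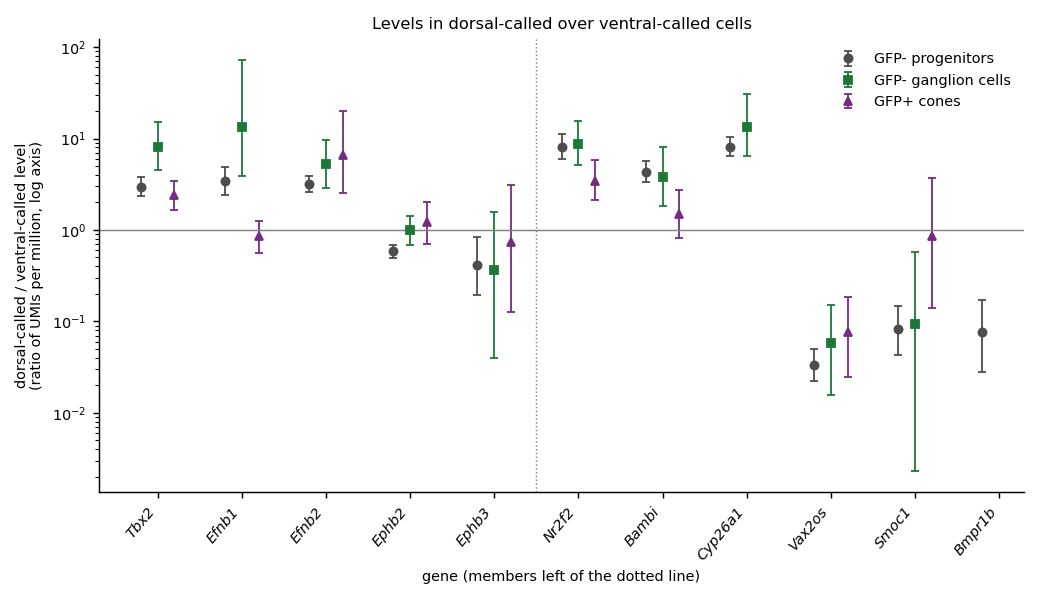
Ratio of the level in dorsal-called over ventral-called cells (y axis, log scale) with 95% exact intervals, for the 5 members outside the calls (left of the dotted line) and 6 further genes, in progenitors, ganglion cells and GFP+ cones. *Tbx2* and *Efnb2* lie above 1 in all 3 groups, while *Efnb1* in GFP+ cones (0.851) and *Ephb2* in ganglion cells (1.0) do not follow progenitors. Combinations of gene and group with fewer than 10 UMIs are left out.

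Genes of related pathways were read from lists, all in dorsal-called over ventral-called progenitors. The lists were chosen with earlier results of these data known, so their counts describe the listed genes and are no independent support. Of 10 further dorsoventral genes with at least 10 UMIs, 4 were at least 2-fold higher and 5 lower, beside 2.51% and 2.3% of all genes. The nuclear receptor gene *Nr2f2* stood at 62.4 against 7.70 CPM (ratio 8.11, 6.0 to 11.2) and *Vax2os* at 6.02 against 179 (ratio 0.0337, 0.0221 to 0.0493). *Vax2os* shares sequence with *Vax2*, which is an anchor, and with calls made without *Vax2* its ratio was 0.0704 (0.0550 to 0.0889). Among 9 retinoic acid genes 2 were higher and 0 lower, *Cyp26a1*, which degrades retinoic acid, at 102 against 12.7 (ratio 8.05, 6.37 to 10.3) and the receptor gene *Rarb* at 11.1 against 3.62 (ratio 3.08, 1.86 to 5.24). Of 8 genes of the Bmp pathway 3 were higher and 0 lower, *Bambi*, a decoy receptor of the pathway, at 54.2 against 12.5 (ratio 4.32, 3.36 to 5.62), and *Smad9* and *Bmp7* on few UMIs, 10 against 3 and 8 against 5. The 5 other genes of the B-type Eph and ephrin list had 0 higher and 0 lower, from *Ephb6* at 0.738 to *Epha4* at 1.71. From the other axis *Foxd1* stood at 20.5 against 16.6 CPM (ratio 1.24, 0.926 to 1.64), an interval that held equality. None of the 8 further T-box genes reached 10 UMIs.

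Over all genes with at least 50 UMIs in these cells, the 10 most dorsal, whose pattern was thus most like that of the dorsal members, were *Unc5b*, *Nr2f2*, *Cyp26a1*, *Bambi*, *Vstm2b*, *Fgf8*, *Sowaha*, *Efnb1*, *Fgd6* and *Lrrc4c*, with ratios from 8.71 to 3.21. *Unc5b*, a netrin receptor gene, led at 13.2 against 1.51 CPM (ratio 8.71, 4.42 to 19.1). The 10 most ventral were *Vax2os*, *Bmpr1b*, *Smoc1*, *Atp6v1b1*, *Col4a6*, *Gad2*, *Edaradd*, *Shisa2*, *Clec18a* and *Wnt7b*, with ratios from 0.0337 to 0.283. *Bmpr1b*, a Bmp receptor gene, stood at 1.34 against 17.4 (ratio 0.0771, 0.0277 to 0.173) and *Smoc1*, a secreted calcium-binding protein gene, at 2.68 against 32.2 (ratio 0.0832, 0.0423 to 0.148). *Atp6v1b1* begins 4676 bases beyond *Vax2*, and with calls made without *Vax2* its ratio was 0.143 (0.0492 to 0.346). Those with at least 10 UMIs were read in the other groups. In ganglion cells 7 of 7 dorsal genes were above 1 and 5 of 5 ventral genes below, with intervals past 1 for 7 and 2. In neurogenic cells 6 of 6 and 5 of 6 were on the side they had in progenitors (intervals past 1 for 2 and 4), in GFP+ cones 4 of 5 and 4 of 4 (2 and 2), and in amacrine and horizontal cells 1 of 2 and 3 of 4 (0 and 3). Markers of the edge of the retina moved with the calls, since the 4 ciliary margin genes stood at 35.7 (30.4 to 41.7) in dorsal-called and 18.9 (15.7 to 22.5) in ventral-called progenitors, with 0 and 1 of them at 0. The 2 optic stalk genes stood at 2.45 (1.22 to 4.39) and 9.96 (7.71 to 12.7), with neither at 0, and the part of either list in the ratios was not tested.

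In ganglion cells the calls gave 84 dorsal-called and 202 ventral-called cells. *Tbx5* was found in 18 of the 84, although in this group it was lower in dorsal-called cells when left out of the calls (ratio 0.380, 0.146 to 0.834). The ratios below keep it as a dorsal anchor, and its part in them was not tested. *Tbx2* stood at 59.8 against 7.42 CPM (ratio 8.06, 4.52 to 15.1), *Efnb1* at 18.8 against 1.39 on 16 and 3 UMIs (ratio 13.5, 3.86 to 72.2) and *Efnb2* at 43.4 against 8.35 (ratio 5.20, 2.89 to 9.70). These 3 members were higher, beside 5.16% of genes, and 1 was lower, beside 5.02%, which was *Ephb3* on 2 and 14 UMIs (ratio 0.361, 0.0399 to 1.57). *Ephb2* showed no lean, at 51.6 against 51.5 CPM (ratio 1.0, 0.690 to 1.43). The ligands were thus uneven between called ganglion cells, and the receptor *Ephb2* was not distinguishable from even.

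In ganglion cells *Tbx5* was concentrated in few cells. It was found in 34 of 465 cells (7.31%, 5.12 to 10.1%), 0.401 of the share for an even spread, and 71 of its 94 UMIs lay in 15 cells with 3 or more, up to 9 in a cell. In progenitors and GFP+ cones no cell had more than 2 UMIs. The following classes were chosen after these values were seen. Of the 15 cells 13 had *Tbx2* (86.7%, 59.5 to 98.3%) against 13% (9.97 to 16.5%) of the 431 ganglion cells without *Tbx5*, while *Tbx3*, *Efnb2* and *Aldh1a3* had 0 UMIs in all 15. *Vax2* was present in 12 of the 15 (80.0%, 51.9 to 95.7%), in 3 of the 19 cells with 1 or 2 *Tbx5* UMIs (15.8%, 3.38 to 39.6%) and in 219 of the 431 (50.8%, 46.0 to 55.6%). Most cells with much *Tbx5* thus had *Tbx2* and most had *Vax2*, unlike the *Tbx5* progenitors, of which 1 of 51 had *Vax2*. Among the 594 ganglion cells over the limit on genes, 16 had 3 or more *Tbx5* UMIs. Of these 11 had *Tbx2* (68.8%, 41.3 to 89.0%), against 17.7% of the 542 without *Tbx5*, and 12 had *Vax2* (75.0%, 47.6 to 92.7%), against 67.9%. *Tbx3* and *Efnb2* were each found in 3 of the 16 and *Aldh1a3* in 1, so the absence seen in the 15 cells did not hold there. Read from calls made without it, *Tbx5* had 7 UMIs in dorsal-called and 58 in ventral-called ganglion cells (ratio 0.380, 0.146 to 0.834). The 15 cells had a median depth of 11833 UMIs, and the 431 cells one of 10680.

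Of the GFP+ cones 206 were dorsal-called, 406 ventral-called, 10 had both and 2935 had neither, so most cones had no anchor UMI at this depth. Left out of the calls, each anchor leaned to its own side, but only *Vax2* had an interval that excluded equality (ratio 0.261, 0.0874 to 0.935). *Tbx3* stood at 2.66 (0.684 to 9.21) on 5 and 8 UMIs, and the other anchors had fewer UMIs. *Vax2* was found in 390 of the 406 ventral-called cones, so the calls in cones are less well supported than in progenitors. *Foxd1*, from the other axis, was also higher in dorsal-called cones, at 23.5 against 9.2 CPM on 22 and 17 UMIs. Its ratio was 2.56, with an interval above 1, unlike in progenitors. The calls in cones thus also separated a gene of the other axis, and why was not tested. Among the 5 members outside the calls 2 were at least 2-fold higher and 0 lower, against 2.39% and 4.25% of 10704 genes. *Tbx2* stood at 74.9 against 31.4 CPM (ratio 2.39, 1.66 to 3.44) and *Efnb2* at 21.4 against 3.25 on 20 and 6 UMIs (ratio 6.59, 2.55 to 20.1). *Efnb1*, the member with the highest ratio between the gates, did not follow position in cones, at 39.6 against 46.5 (ratio 0.851, 0.563 to 1.27), and neither did *Ephb2*, at 26.8 against 22.2 (ratio 1.21, 0.703 to 2.03). In neurogenic cells 4 of these members had at least 10 UMIs, and 1 was higher and 1 lower, beside 4.4% and 4.57% of genes. The higher one was *Efnb2* (ratio 3.14, 1.19 to 9.65) and the lower one *Ephb3* on 3 and 7 UMIs (ratio 0.448, 0.0748 to 1.96). The intervals of *Tbx2* (ratio 1.34, 0.632 to 2.92) and *Ephb2* (ratio 0.740, 0.463 to 1.17) held equality there. In amacrine and horizontal cells 2 had enough UMIs, and 0 were higher and 1 was lower, beside 5.43% and 8.67% of genes. The lower one was *Efnb1*, a dorsal gene, on 2 UMIs in 35 dorsal-called and 10 UMIs in 69 ventral-called cells (ratio 0.374, 0.0398 to 1.76).

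The study describes a subset of cones with *Fabp7*, which encodes a fatty acid binding protein, and another with the amino acid transporter genes *Slc7a3* and *Slc7a5*, so the members were read in both. *Fabp7* stood at 678 CPM (627 to 733) in dorsal-called, 282 (258 to 307) in ventral-called and 452 (440 to 464) in cones with no anchor. At least 2 UMIs of it were found in 32.0% (25.7 to 38.9%) of the dorsal-called, 18.0% (14.4 to 22.1%) of the ventral-called and 21.9% of the remaining cones. The dorsal over ventral ratio was 2.41 (2.14 to 2.71), and 1.88 with *Tbx3* left out of the calls. *Fabp7* was thus highest in dorsal-called and lowest in ventral-called cones, whose median depths were 4178 and 4197.5 UMIs.

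**Figure D5:**
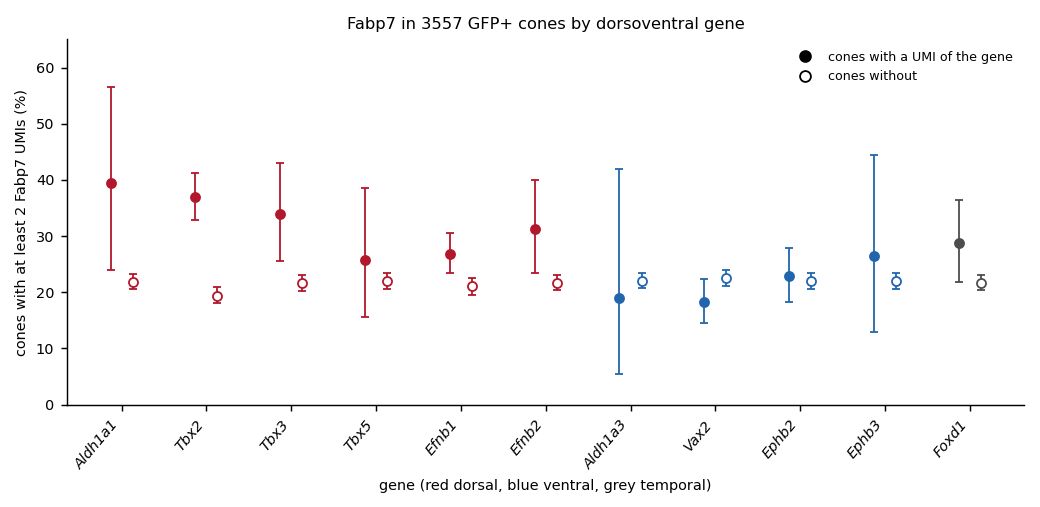
Share of the 3557 GFP+ cones with at least 2 *Fabp7* UMIs (y axis, percent) among cones with a UMI of each gene (filled) and without (open), with 95% exact Clopper-Pearson intervals. The intervals stand apart for *Tbx2*, *Tbx3*, *Efnb1*, *Efnb2* and *Aldh1a1*, with the filled point above, and for *Foxd1* they meet. Of these, *Efnb1* did not differ between dorsal-called and ventral-called cones beyond counting error (0.851). *Foxd1*, from the other axis, was higher in dorsal-called cones (2.56).

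The same was read gene by gene. At least 2 *Fabp7* UMIs were found in 36.9% (32.8 to 41.1%) of cones with *Tbx2* and 19.4% (18.0 to 20.9%) of those without. For *Tbx3* the shares were 33.9% (25.5 to 43.0%) and 21.6% (20.3 to 23.0%), and for *Efnb1* 26.8% (23.4 to 30.5%) and 21.0% (19.6 to 22.6%). *Vax2* pointed the other way, at 18.2% (14.6 to 22.4%) against 22.5% (21.1 to 24.0%), with intervals that met. For *Foxd1* the intervals of the shares met, but the *Fabp7* level stood at 588 CPM (533 to 647) with it and 437 (427 to 448) without. The dorsal gene *Nr2f2*, which is no member, had a ratio of 3.44 between called cones, but the level and the share of *Fabp7* leaned opposite ways with it. The *Fabp7* level was 404 CPM (375 to 435) with *Nr2f2* and 450 (439 to 462) without. The shares were 24.0% (19.9 to 28.5%) and 21.8% (20.4 to 23.3%), with intervals that met. For the ventral gene *Vax2os* the level was 215 CPM with it and 471 without. Why *Nr2f2* differed from *Tbx2* and *Tbx3* was not tested. Cones with a UMI of a gene were somewhat deeper than those without, at medians of 4140 and 3851 UMIs for *Tbx2*.

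The subsets were cut at 2 UMIs, of *Fabp7* or of *Slc7a3* and *Slc7a5* together. The 784 cones with at least 2 *Fabp7* UMIs were set against the 2583 cones of neither subset. Of the latter 24.4% still had a *Fabp7* UMI and 6.23% an *Slc7a5* UMI. In the *Fabp7* cones 1 member was at least 2-fold higher and 0 lower, beside 2.26% and 4.1% of genes. That member was *Aldh1a1*, at 4.73 against 2.27 CPM on 18 and 23 UMIs (ratio 2.09, 1.06 to 4.04). The *Fabp7* cones were deeper, at a median of 4517.5 against 3732 UMIs. *Tbx2* stood at 74.1 against 37.1 (ratio 1.99, 1.70 to 2.33), and *Vax2* at 23.4 against 35.2 (ratio 0.665, 0.521 to 0.841). *Efnb1* stood at 50.7 against 47.8 (ratio 1.06, 0.893 to 1.26), an interval that held equality. The 212 transporter cones, with at least 2 UMIs of *Slc7a3* and *Slc7a5* together, had 1 member higher and 0 lower, beside 6.03% and 4.03% of genes. The higher one was *Aldh1a3* on 3 UMIs (ratio 2.17, 0.402 to 7.66), and *Tbx2* was at 25.6 against 37.1 (ratio 0.690, 0.436 to 1.04). The *Fabp7* cones thus had more *Tbx2* and less *Vax2*, while for the transporter cones every member's interval held equality, and 22 cells belonged to both subsets. Genes that are no members did differ. In transporter cones the ventral gene *Smoc1* had 12 UMIs against 33 (ratio 3.94, 1.85 to 7.83) and *Foxd1* 23 against 100 (ratio 2.49, 1.51 to 3.95). There the intervals of *Vax2os* (ratio 1.25) and *Nr2f2* (ratio 1.40) held equality. In *Fabp7* cones *Smoc1* had 1 UMI against 33 (ratio 0.0808, 0.00199 to 0.483). Why was not tested.

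*Opn1sw*, the short-wavelength opsin that is highest ventrally in the mature mouse retina, was found in 150 GFP+ cones. Of the members 0 were at least 2-fold higher there and 1 was lower, beside 4.55% and 3.95% of genes, and the lower one was *Tbx5* on 1 UMI. *Vax2* stood at 47.0 against 31.7 CPM (ratio 1.48, 0.982 to 2.16), an interval that just held equality, and *Tbx2* at 51.9 against 45.6 (ratio 1.14, 0.772 to 1.62). *Vax2os*, which is no member, stood at 50.2 against 27.7 CPM on 31 and 392 UMIs (ratio 1.82, 1.22 to 2.62), so this ventral gene was higher in opsin cones, while the intervals of *Vax2* and *Tbx2* held equality.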

How the data were processed

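Retinal cells sorted by GFP were profiled by 3' droplet sequencing, with 1 library per gate. The authors deposited UMI counts per gene and cell, made with Cell Ranger 2.1.1 on the mm10 (GRCm38) genome. Intronic and strand settings are not given in the sources used here. Counts were read with Python 3.11.15, numpy 2.4.6, pandas 2.3.3, scipy 1.17.1 and scanpy 1.11.5. Cells outside 250 to 3500 detected genes, or with 0.25 or more of their UMIs mitochondrial, were left out, and the rest were grouped by at least 2 listed marker genes. Depth ranged from a median of 3894 UMIs per GFP+ cell to 8853 per GFP- cell.

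UMIs were summed per group and divided by the group's total. A call is a ratio of at least 2-fold with at least 10 UMIs over both groups, with a group at 0 set to 3 UMIs. Ratios carry exact conditional binomial intervals. No test was run, since cells are not replicates. Thinning drew 3200 or 5000 UMIs per cell without replacement and left out shallower cells. Scrublet, run with an expected rate of 0.03, marked 4 GFP+ and 45 GFP- cells. Of these, 3 GFP+ and 0 GFP- cells were kept, so the marked GFP- cells had all been left out by the limits above. So few marks do not show that the kept cells hold no doublets, and doublets were not removed. TMM factors came from edgeR 4.0.16 in R 4.3.3. The summing and interval steps were tested on simulated data.

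The members and lists were chosen with earlier results of these data known. Named genes were the members, the listed pathway genes, and the 10 highest and 10 lowest dorsal over ventral ratios among genes with at least 50 UMIs in called progenitors, anchors not counted. Alternatives were thinning, TMM, other marker, doublet and gene limits, and other calls.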

Additional observations from a re-analysis of the deposited data

Results flagged for a closer look

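Other cell groups with at least 50 cells in both classes were set against progenitors. Of the members, 3 had a dorsal-called over ventral-called ratio on the other side of 1 from that in progenitors, with intervals apart. Only the interval of *Tbx5* lay past 1, and those of the others held equality. These differences between groups were not tested. The same rule was not run over all genes, so whether 3 members are many cannot be said. *Tbx5* stood at a ratio of 0.380 (0.146 to 0.834) in ganglion cells, on 7 and 58 UMIs, and in progenitors it had 39 UMIs in dorsal-called and 0 in ventral-called cells. Of its 94 UMIs in ganglion cells 71 lay in 15 cells, 12 of them with *Vax2*, while of the 19 cells with 1 or 2 *Tbx5* UMIs 3 had *Vax2*, so the ratio describes few cells. *Efnb1* stood at 0.851 (0.563 to 1.27) in GFP+ cones and at 3.42 (2.41 to 4.90) in progenitors. *Ephb2* stood at 1.0 (0.690 to 1.43) in ganglion cells and at 1.21 (0.703 to 2.03) in GFP+ cones, against 0.582 (0.497 to 0.680) in progenitors.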

How the results depend on the processing

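Of 218 values recomputed under alternatives, 198 stayed close to the value given (within its counting interval, for a single value), 20 moved further and 0 reversed. Of the 198, 41 came from leaving out Scrublet doublets, which took away 3 kept GFP+ and 0 kept GFP- cells and so could hardly move a value. A reversal was recorded only for single ratios of at least 2-fold either way, so counts and shares could not be labelled reversed. Dorsal-dorsal pairs that were higher with intervals apart numbered 11, and 6 with cells thinned to 5000 UMIs and 4 with detection set at 2 UMIs. The share of *Aldh1a1* progenitors with *Vax2*, 14.3%, became 9.34% after that thinning, 18.8% with no upper limit on genes and 4.28% with detection at 2 UMIs. In *Fabp7* cones the count of members higher fell to 0 with subsets cut at 1 UMI, and in *Slc7a3* or *Slc7a5* cones thinning to 3200 UMIs gave 0 higher and 1 lower. The *Fabp7* ratio between called cones was 1.88 without *Tbx3*, an alternative chosen after seeing the data, and between 2.19 and 2.71 without any other anchor. Why these values moved was not tested. No paired analysis was possible because each gate has 1 library, which also leaves no replicate to leave out. Counting depth limits *Tbx5*, *Ephb3* and every anchor in cones.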
